A study of Mus musculus with 3 samples.

Results

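Expression of 7 genes of vitamin A storage, transport and breakdown was examined across cell classes of mouse liver. The genes were chosen by their symbols for what they are known to do, and with earlier results of these data known. They are Lrat, Rbp4, Aldh1a1, Aldh1a2, Cyp26a1, Cyp26b1 and Bco1, 7 of the 32285 genes in the deposited count tables. Single-nucleus RNA sequencing (sNuc-Seq) of frozen liver was available for 3 male C57BL/6 J mice, with 1 library per mouse. The mouse on normal diet is called ND. The other mice, STZ-HFHC 1 and STZ-HFHC 2, had received 0.2 mg of streptozocin under the skin at 3 days of age and a high-fat high-cholesterol diet (41 kcal% fat) from 4 weeks of age, and are described by the submitters as having liver fibrosis related to metabolic dysfunction-associated steatohepatitis (MASH). The toxin and the diet therefore differ together between the groups, and ages at tissue collection and the vitamin A content of the diets are not given in the sources used here. The sample titles carry a code that begins differently for ND than for STZ-HFHC and whose meaning is not given in the sources used here, so whatever it marks cannot be told apart from the condition.

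Vitamin A is stored in the liver as retinyl esters in the fat droplets of hepatic stellate cells, where LRAT makes the esters. Hepatocytes make RBP4, the protein that carries retinol out into the blood. Retinol is oxidized to retinal and then, by enzymes that include ALDH1A1 and ALDH1A2, to retinoic acid, which binds the nuclear receptors RAR and RXR and is broken down by CYP26A1 and CYP26B1. BCO1 cleaves beta-carotene from the diet into retinal. Loss of their retinoid droplets is a known feature of stellate cells that turn into matrix-producing cells in fibrosis.

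After limits of 200 to 5000 genes and at most 5% mitochondrial counts, the ND library retained 8494 nuclei and the STZ-HFHC libraries 8921 and 10921, with a median of 3015 to 4068 unique molecular identifiers (UMIs, counts of captured RNA molecules) per nucleus and 42715797 to 55632923 UMIs per library. Pairs of libraries shared 29 to 32 cell barcodes, at most 0.322% of the smaller library, and the shared barcodes had profiles about as alike as other pairs of nuclei (median r 0.403 to 0.436 against 0.401 to 0.424). Clustering without the retinoid genes gave 23 clusters, which were named by marker lists. Hepatocyte-like nuclei numbered 5415, 3030 and 4783 in ND, STZ-HFHC 1 and STZ-HFHC 2, endothelial-like nuclei 1195, 865 and 1044, and stellate-like nuclei 1181, 631 and 1306. Nuclei of ND and of STZ-HFHC fell largely into different clusters within each of these classes, hepatocyte-like nuclei into clusters 0, 13 and 16 in ND and 1, 2, 8 and 12 in STZ-HFHC. RNA of hepatocytes was present in every class: the summed level of 10 hepatocyte markers in stellate-like nuclei was 79.7%, 46.9% and 55.7% of that in hepatocyte-like nuclei. Levels are therefore given in UMIs per 1000000 (CPM) over all nuclei of a class in a library, beside the level in hepatocyte-like nuclei multiplied by that ratio. All intervals are exact 95% Poisson or binomial intervals and cover counting error only.

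The promoters of the genes were examined first, because retinoic acid receptors bind paired half-sites in DNA and several retinoid genes are known to respond to retinoic acid through them. In the 250 bases before the RefSeq start (build GRCm38.p6, 7 of 7 genes matched), the direct repeat bound by RAR with RXR was searched on both strands as 2 copies of NGTTCA separated by 5 free bases. It was present in 22 of 32851 mouse promoters (0.067%), and among the 7 genes in Cyp26a1 alone, 32 to 16 bases before the start on the minus strand. The promoter of Rarb, which encodes a retinoic acid receptor and is a textbook target of retinoic acid, held it 53 to 37 bases before the start on the plus strand. The windows of Dhrs3, another known target that was searched, did not hold it. Another direct repeat, 2 copies of AGGTCA separated by 1 free base, the type of site bound by RXR with the fatty acid receptors PPAR, was found in 11 of 32851 promoters (0.0335%), among them Bco1, 56 to 44 bases before the start on the minus strand. No window shown holds both repeats. These letters were not in the windows of Lrat, Rbp4, Aldh1a1, Aldh1a2 and Cyp26b1, which says only that these exact letters are not there. The 3 promoters with a match are shown because they hold the exact repeats, and that of Lrat because Lrat and Bco1 were both highest in stellate-like nuclei. Capitals mark the motif, and each sequence reads 5′ to 3′ on the strand of its gene: chr19:37697558-37697807 (+) for Cyp26a1, chr14:16575477-16575726 (-) for Rarb, chr8:117095615-117095864 (+) for Bco1 and chr3:82903975-82904224 (-) for Lrat.
Cyp26a1: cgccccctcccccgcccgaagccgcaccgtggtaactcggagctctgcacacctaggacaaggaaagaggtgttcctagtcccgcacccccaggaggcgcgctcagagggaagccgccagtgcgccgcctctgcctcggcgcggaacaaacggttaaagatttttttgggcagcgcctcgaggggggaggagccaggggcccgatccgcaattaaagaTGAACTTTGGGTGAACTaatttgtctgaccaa
Rarb: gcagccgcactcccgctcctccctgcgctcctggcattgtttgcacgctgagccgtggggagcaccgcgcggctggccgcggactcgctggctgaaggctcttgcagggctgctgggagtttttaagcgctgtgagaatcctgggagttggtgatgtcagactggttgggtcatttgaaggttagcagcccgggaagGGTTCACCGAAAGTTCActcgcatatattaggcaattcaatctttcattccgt
Bco1: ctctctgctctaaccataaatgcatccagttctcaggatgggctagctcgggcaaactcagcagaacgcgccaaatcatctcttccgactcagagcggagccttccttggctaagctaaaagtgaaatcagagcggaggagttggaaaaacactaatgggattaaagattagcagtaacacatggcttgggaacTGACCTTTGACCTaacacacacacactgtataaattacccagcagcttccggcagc
Lrat: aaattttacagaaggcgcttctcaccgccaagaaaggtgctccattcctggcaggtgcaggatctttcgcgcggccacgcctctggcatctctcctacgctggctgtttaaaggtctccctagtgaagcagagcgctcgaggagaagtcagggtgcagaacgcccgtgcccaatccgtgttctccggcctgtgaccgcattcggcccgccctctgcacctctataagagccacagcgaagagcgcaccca

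Lrat and Bco1 were highest in stellate-like nuclei in all 3 libraries, apart from 1 value of Lrat that came from 3 UMIs. Lrat (ENSMUSG00000028003, chr3:82892579-82903973, minus strand, GRCm38) was at 20.5 CPM in ND and 71.8 and 65.9 in the STZ-HFHC mice, from 143, 140 and 260 UMIs. In hepatocyte-like nuclei it was at 1.17, 1.32 and 0.966 CPM, and its level in stellate-like nuclei was 22.1, 116 and 122 times the level that hepatocyte RNA would give. Bco1 (ENSMUSG00000031845, chr8:117095854-117133720, plus strand) was at 29.8, 85.2 and 88.9 CPM in stellate-like nuclei, from 208, 166 and 351 UMIs, and at 2.49, 4.11 and 2.61 CPM in hepatocyte-like nuclei. Stellate-like nuclei held 69.8%, 48.8% and 73.2% of the UMIs of Lrat and 68.9%, 46.9% and 64.5% of those of Bco1 in ND, STZ-HFHC 1 and STZ-HFHC 2. For Lrat, endothelial-like nuclei came next among the larger named classes, at 2.93, 3.85 and 3.06 CPM. Their intervals overlapped those of the immune, cholangiocyte-like and mesothelial-like nuclei, with the exception of ND mesothelial-like nuclei, at 29.0 CPM from 3 UMIs. Unnamed cluster 6 held 41 and 33 UMIs of Lrat in STZ-HFHC 1 and 2 (14.3% and 9.3% of the gene's UMIs). Of Bco1 it held 37 and 55 UMIs (10.5% and 10.1%). Lrat overlaps the antisense gene Rbm46os, and whether strand was used in counting to keep reads of the 2 genes apart is not given in the sources used here.

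With each nucleus thinned to 1000 UMIs, 4.11% of ND stellate-like nuclei, and 6.33% and 6.43% of those from STZ-HFHC 1 and 2, had a UMI of Lrat, against 0.193%, 0.13% and 0.11% of hepatocyte-like nuclei, which should lack it. For Bco1 the shares were 5.57%, 9.0% and 9.21%, against 0.29%, 0.33% and 0.21%. Without thinning they were 9.82%, 14.9% and 14.9% for Lrat and 14.6%, 20.4% and 20.8% for Bco1. The stellate-like shares lay well above the hepatocyte-like shares in every library. Median depth was 4720, 2219 and 2231.5 UMIs in stellate-like nuclei and 4029, 7871.5 and 6534 in hepatocyte-like nuclei.

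**Figure D1:**
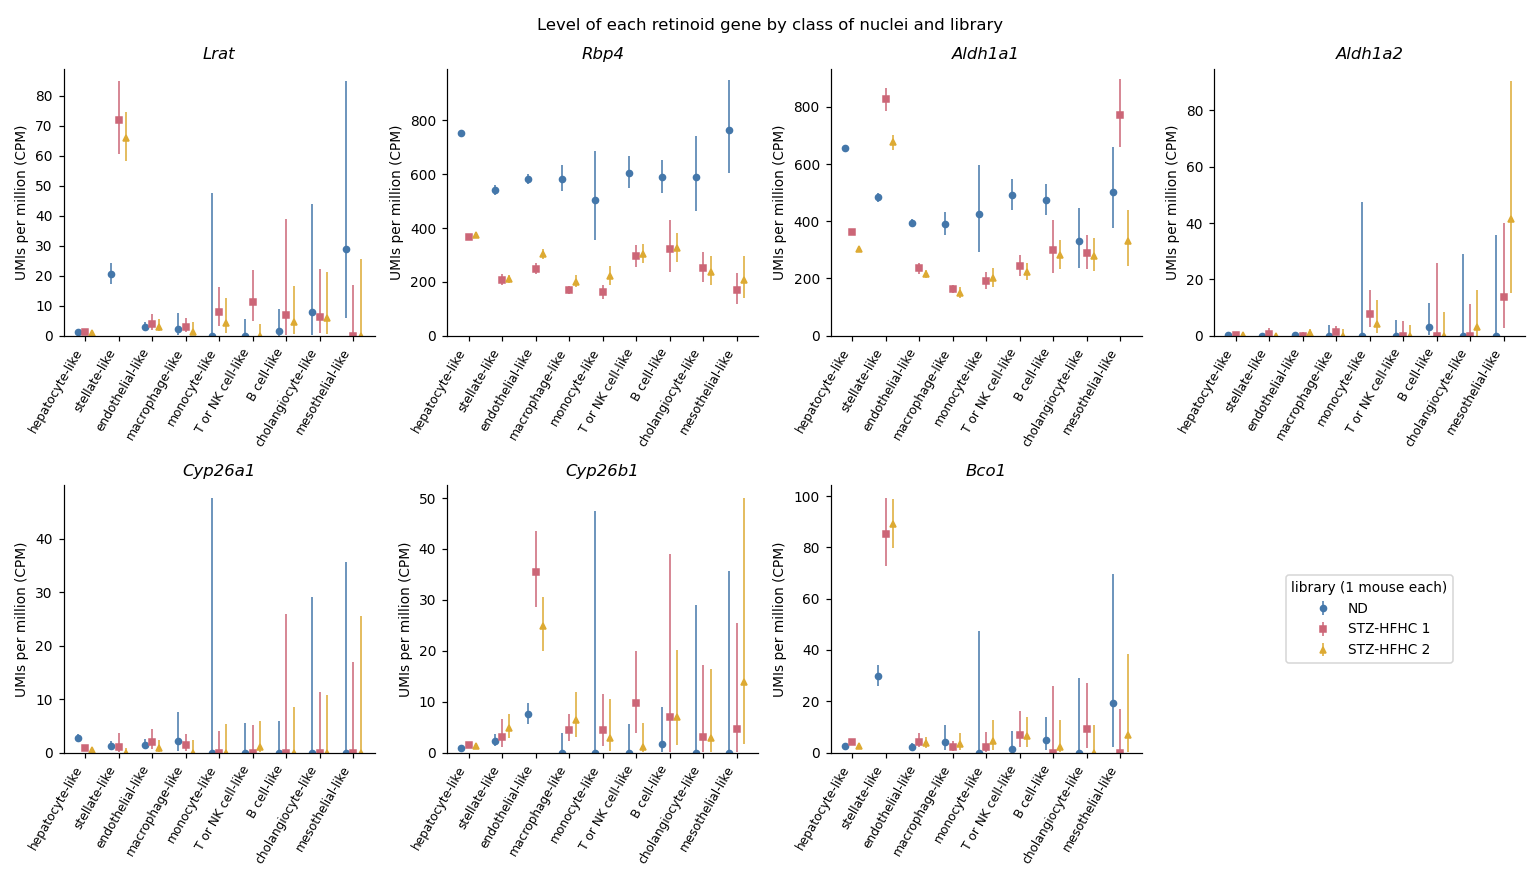
Level of each of the 7 genes (CPM, linear axes of different range) by cell class, with 1 point per library and exact 95% Poisson intervals. In STZ-HFHC, Lrat (71.8 and 65.9 CPM) and Bco1 are highest in stellate-like nuclei and Cyp26b1 in endothelial-like nuclei, while Rbp4 and Aldh1a1 are seen in every class.

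Whether storage genes differ between normal and fibrotic liver was asked in the stellate-like class. Per UMI of the class, both genes were higher in STZ-HFHC. Lrat rose by 1.68 ± 0.31 on the log2 scale (SE; adjusted p = 5.93e-07, edgeR) and Bco1 by 1.48 ± 0.28 (adjusted p = 2.08e-06, edgeR), and in both STZ-HFHC libraries the level lay above the ND interval. In this class 3899 of 13902 genes tested were called (28%, 13.8% higher and 14.2% lower), and of the 5 members tested Lrat and Bco1 were called higher and Rbp4 lower. The test rests on 1 ND and 2 STZ-HFHC libraries and has 1 residual degree of freedom. It assumes that ND mice vary as the STZ-HFHC mice do, since only the spread between the 2 STZ-HFHC mice is available. edgeR shares this spread over genes, so the p-values do not measure that of Lrat or Bco1 alone. With every gene tested in place of those past the filter on low counts, the adjusted p rose to 0.0901 for Lrat and 0.0935 for Bco1 (edgeR).

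The difference was not seen relative to the stellate markers of the same nuclei. The 12 stellate markers summed to 1866 CPM in ND and to 6740 and 5657 CPM in STZ-HFHC, lowest in ND. Per 1000 stellate-marker UMIs, Lrat was at 11 in ND and 10.7 and 11.6 in the STZ-HFHC mice. The ratios to ND were 0.969 (0.762 to 1.23) and 1.06 (0.860 to 1.31). Bco1 was at 16.0, 12.6 and 15.7 per 1000 marker UMIs, with ratios of 0.790 (0.640 to 0.973) and 0.983 (0.825 to 1.17). Without Col3a1 and Col1a2, collagen genes among the markers, Lrat was at 11.2, 11.9 and 12.3 and Bco1 at 16.3, 14.1 and 16.6. On this scale the 3 libraries were close, and the edgeR log2 difference scaled to the markers was 0.02 (adjusted p = 0.964) for Lrat and -0.17 (adjusted p = 0.699) for Bco1.

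Of the stellate-like clusters, only cluster 3 held at least 20 nuclei of each library, with 139, 627 and 1302 nuclei. There the hepatocyte markers were at 46.7%, 46.9% and 55.7% of the hepatocyte-like level and the stellate markers at 8935, 6741 and 5658 CPM, so the nuclei of the 3 libraries were more alike in content. Lrat in cluster 3 was at 120 CPM in ND (41 UMIs) and 72.0 and 66.0 CPM in the STZ-HFHC mice. Bco1 was at 135 CPM in ND (46 UMIs) and 85.3 and 89.0 CPM in the STZ-HFHC mice. Both directions were the reverse of those over the whole class, at -0.80 ± 0.31 for Lrat (adjusted p = 0.142) and -0.62 ± 0.30 for Bco1 (adjusted p = 0.282), and neither passed the edgeR threshold, which 532 of 12213 genes (4.36%) passed. Per stellate-marker UMI in cluster 3, the ratios of STZ-HFHC 1 and 2 to ND were 0.794 (0.557 to 1.15) and 0.867 (0.622 to 1.24) for Lrat. For Bco1 they were 0.839 (0.602 to 1.19) and 1.04 (0.766 to 1.45), with no common direction. Of the other 1042 ND stellate-like nuclei, in cluster 10, the hepatocyte markers stood at 81.4% of the hepatocyte-like level and the stellate markers at 1502 CPM. The highest doublet scores took in 0.719% of ND nuclei in cluster 3 and 14.5% and 16.1% of STZ-HFHC nuclei.

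**Figure D2:**
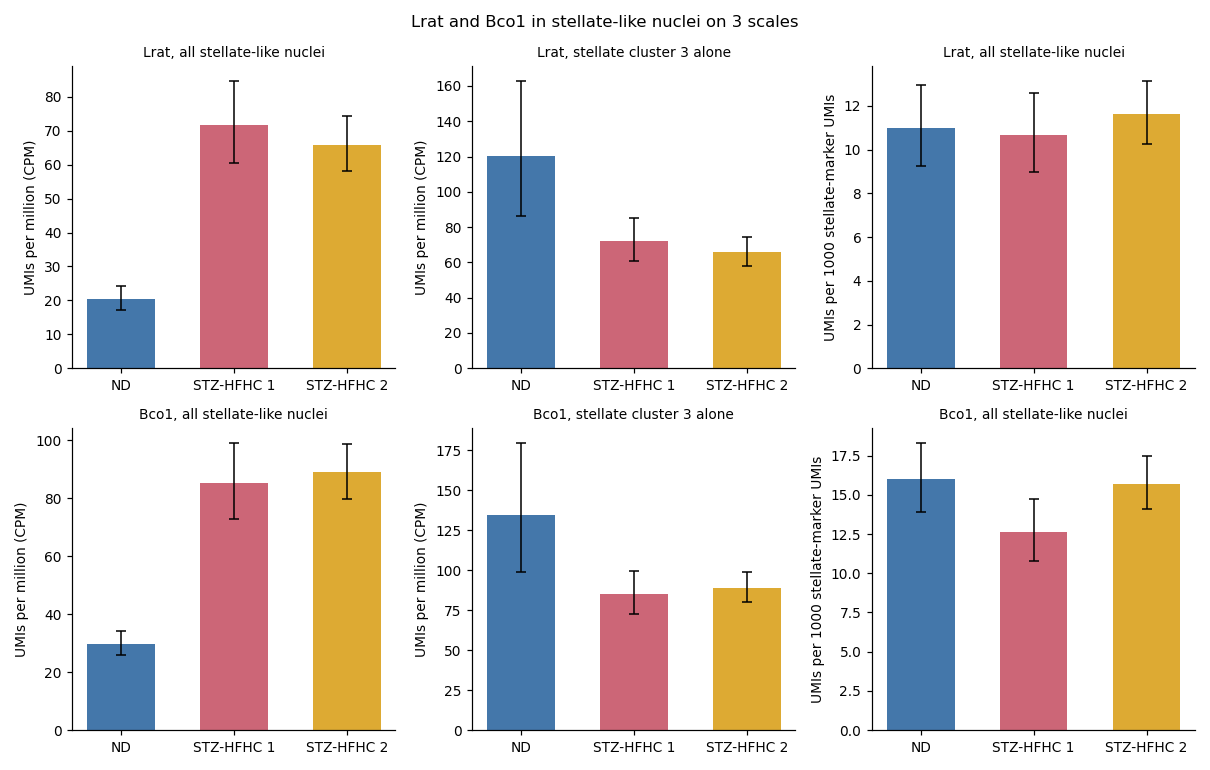
Lrat and Bco1 in each library, in CPM over all stellate-like nuclei and in cluster 3, and per 1000 stellate-marker UMIs over all stellate-like nuclei. Bars start at 0 and error bars are 95% intervals. Over the whole class ND lies lowest in CPM (20.5 for Lrat), in cluster 3 it lies highest (120), and per marker UMI the libraries lie close together.

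Genes of stellate activation were also examined, from a list chosen with earlier results of these data known. Of that list, Col1a2 and Col3a1 are also among the 12 stellate markers used to name the class. The summed markers were themselves lowest in ND over the class, at 1866 CPM against 6740 and 5657 in STZ-HFHC 1 and 2. The part of this in the levels below was not tested. All 10 listed genes, among them Acta2, Col1a1 and Timp1, were higher in STZ-HFHC over the whole class, beside 13.8% of all genes (median log2 difference 3.52, against -0.01 over all genes), with Col3a1 at 24.8, 442 and 201 CPM, while in cluster 3 Col1a1 and Col3a1 were higher, Tgfbi was lower and 7 did not pass (median 0.81, against 0.05), beside 2.03% of all genes higher and 2.33% lower. Rarb was at 84.1, 242 and 171 CPM over the class (adjusted p = 8.48e-06, edgeR) and differed by 0.21 in cluster 3 (adjusted p = 0.789, edgeR).

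Aldh1a1, which oxidizes retinal, was abundant in hepatocyte-like nuclei and, beyond the hepatocyte RNA, in stellate-like nuclei. Aldh1a1 (ENSMUSG00000053279, chr19:20492715-20643465, plus strand) was at 658 CPM in ND and 361 and 304 in the STZ-HFHC mice in hepatocyte-like nuclei, and at 484, 826 and 676 CPM in stellate-like nuclei. The stellate-like values were 0.922, 4.88 and 3.99 times the level that hepatocyte RNA would give. In cluster 3 the factor was 2.22 in ND, against 4.87 and 3.99 in STZ-HFHC. The level itself was 683 CPM in ND and 825 and 676 in the STZ-HFHC mice there. The log2 ratios to ND were 0.27 and -0.016, with no common direction. Aldh1a1 was thus above the hepatocyte background in all 3 libraries in the cluster that all 3 share, and in ND not over the whole class. For comparison, the factors in ND, STZ-HFHC 1 and STZ-HFHC 2 were 0.709, 1.03 and 0.925 in endothelial-like nuclei. In macrophage-like nuclei they were 0.648, 1.09 and 0.861. The scaled level thus lay above the measured level in these ND classes, so ND factors are not directly comparable with those of STZ-HFHC. Over the whole stellate-like class the edgeR difference was 0.57 (adjusted p = 0.0537). It passed with library totals in place of edgeR's TMM scaling (0.63, adjusted p = 0.0395), with finer clusters (Leiden resolution 2; 0.84, adjusted p = 0.000581) and without the highest doublet scores (0.86, adjusted p = 0.000303), and passed as lower when scaled to the stellate markers (-1.10, adjusted p = 0.0027), a scaling that moved the median of all genes by -1.65. Mesothelial-like nuclei, the liver's surface cells, had factors of 0.940, 6.69 and 1.77 from 52, 168 and 48 UMIs, and in the other classes apart from hepatocyte-like the factor ran from 0.596 to 1.90. The gene overlaps the antisense gene C730002L08Rik. Of its transcript, 151 of 2309 windows of 50 bases (6.54%) also occur in Aldh1a7, so counts from these windows are uncertain.

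**Figure D3:**
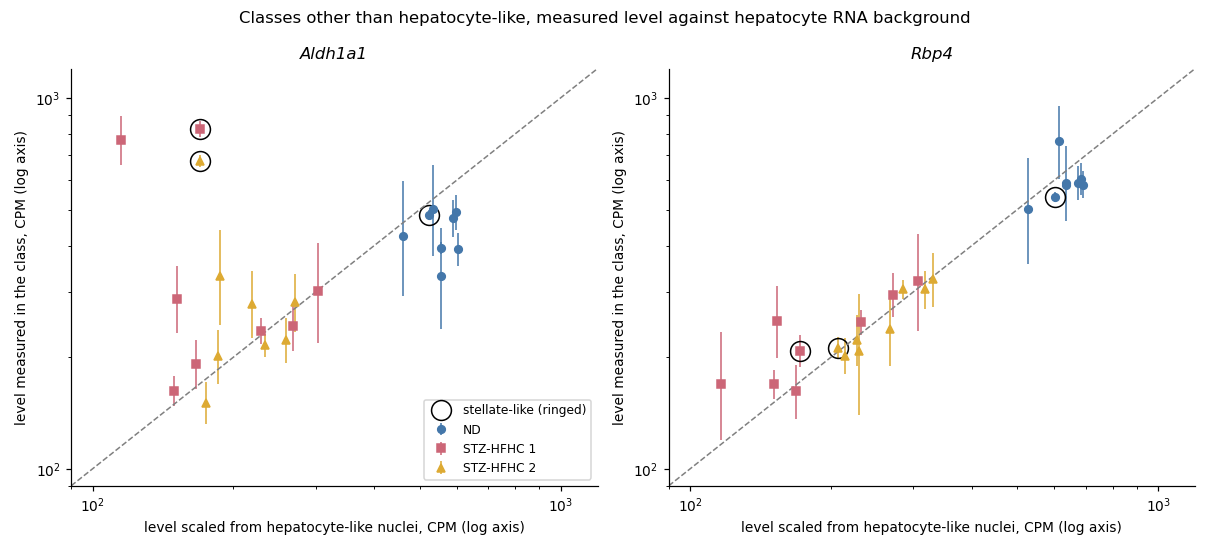
Level of Rbp4 and Aldh1a1 in each class and library against the level in hepatocyte-like nuclei multiplied by the ratio of the summed hepatocyte markers (both axes CPM, log scale). Rbp4 lies near the line of equality in the classes other than hepatocyte-like (0.843 to 1.63 times), while Aldh1a1 in stellate-like nuclei of STZ-HFHC lies at 3.99 to 4.88 times it.

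Rbp4, the retinol carrier of blood, lay near the level of hepatocyte RNA in the other named classes. Rbp4 (ENSMUSG00000024990, chr19:38116629-38125281, minus strand) was at 754 CPM in ND and 365 and 372 in the STZ-HFHC mice in hepatocyte-like nuclei, from 19408, 9684 and 13115 UMIs. In the other 8 named classes it was 0.843 to 1.63 times the level that hepatocyte RNA would give, with a median of 0.971 over 24 values. In stellate-like nuclei it was at 542, 208 and 212 CPM (log2 difference -1.43 ± 0.22, adjusted p = 2.58e-09, edgeR), and in endothelial-like nuclei at 582, 249 and 305 CPM (-1.22, adjusted p = 0.0332, edgeR). The stellate-like difference no longer passed with no filter on low counts (-1.50, adjusted p = 0.0873) or in cluster 3 alone (-0.57, adjusted p = 0.21), and the endothelial-like difference did not pass scaled to the markers (-1.96, adjusted p = 0.13) or by a rule that asks for a log2 ratio of at least 1 in both STZ-HFHC libraries. Those levels lay at 0.901 to 1.22 times the hepatocyte background in stellate-like and 0.916 to 1.07 times in endothelial-like nuclei. Unnamed cluster 11, which is led by mitochondrial genes, lay at 764 and 716 CPM in STZ-HFHC 1 and 2, 2.07 and 1.99 times that background.

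In hepatocyte-like nuclei, Rbp4, Aldh1a1 and Cyp26a1 were lower in both STZ-HFHC libraries than in ND, and none of these differences passed the edgeR threshold. Cyp26a1 (ENSMUSG00000024987, chr19:37697798-37701536, plus strand), a retinoic acid hydroxylase whose promoter above holds the repeat, was at 2.80 CPM in ND (72 UMIs), 0.906 in STZ-HFHC 1 (24 UMIs) and 0.540 in STZ-HFHC 2 (19 UMIs). The ND interval did not overlap those of STZ-HFHC, and no other named class had more than 10 UMIs of it in a library. The log2 differences were -1.14 ± 0.18 for Rbp4 (adjusted p = 0.0641), -1.09 ± 0.20 for Aldh1a1 (adjusted p = 0.0799) and -2.07 ± 0.52 for Cyp26a1 (adjusted p = 0.126). Of 6 members tested 0 were called by edgeR, against 234 of 16579 genes (1.41%), and 3 had an unadjusted p below the 0.05 threshold, as did 21.3% of all genes. DESeq2 called Rbp4 (adjusted p = 0.00096) and Aldh1a1 (adjusted p = 0.00345), 2 of the 4 members to which it gave an adjusted p, beside 6.6% of all genes. In a simulation on these 3 libraries, edgeR recovered 14% of 100 genes changed 2-fold and 66% of 100 changed 4-fold.

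Per 1000 hepatocyte-marker UMIs the same 3 genes were again lower in STZ-HFHC. Rbp4 was at 36.3 in ND and 20.8 and 17.7 in the STZ-HFHC mice, and Aldh1a1 at 31.6, 20.5 and 14.4. Cyp26a1 was at 0.135, 0.0515 and 0.0256, with ratios to ND of 0.383 (0.230 to 0.615) and 0.190 (0.108 to 0.319). Mitochondrial counts were 0.163% of UMIs in ND hepatocyte-like nuclei and 0.0415% and 0.0329% in STZ-HFHC. ND cluster 13, which has mitochondrial, Mup and Serpina1 genes among its 10 leading genes, held 902 of the ND nuclei and had Rbp4 at 1457 CPM, against 623 and 642 in ND clusters 0 and 16. Without it the log2 difference of Rbp4 was -0.88 (adjusted p = 0.098, edgeR). Lrat, Bco1 and Cyp26b1 differed by -0.14 (adjusted p = 0.891, edgeR), 0.32 (adjusted p = 0.714) and 0.59 (adjusted p = 0.551) in hepatocyte-like nuclei.

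Hepatocytes along the lobule differ in metabolism, from the portal to the central vein, and nuclei were ranked by the balance of 10 pericentral against 10 periportal genes and split into 3 ranges of equal size within each library. Aldh1a1 rose toward the central vein in every library, over 411, 629 and 966 CPM in ND, 210, 383 and 493 in STZ-HFHC 1, and 159, 282 and 491 in STZ-HFHC 2. The pericentral range was 2.35, 2.35 and 3.09 times the periportal range, 2.60 ± 0.43 (SD, n = 3). Since 3 libraries pointing 1 way are too few for a test at the threshold, this is given as a description. Rbp4 had no common direction, rising in ND, falling in STZ-HFHC 1 and with overlapping intervals at the ends in STZ-HFHC 2, at 691, 729 and 853 CPM in ND, 380, 369 and 347 in STZ-HFHC 1, and 375, 364 and 378 in STZ-HFHC 2. Cyp26a1 had too few UMIs to order the ranges, from 2.66 to 3.08 CPM in ND and at most 1.36 in STZ-HFHC. The ranges are parts of a score and not types, and 2811, 1587 and 2421 nuclei lay near a boundary. The ND cluster with the highest Aldh1a1, cluster 16 at 1116 CPM, was named by the pericentral list.

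**Figure D4:**
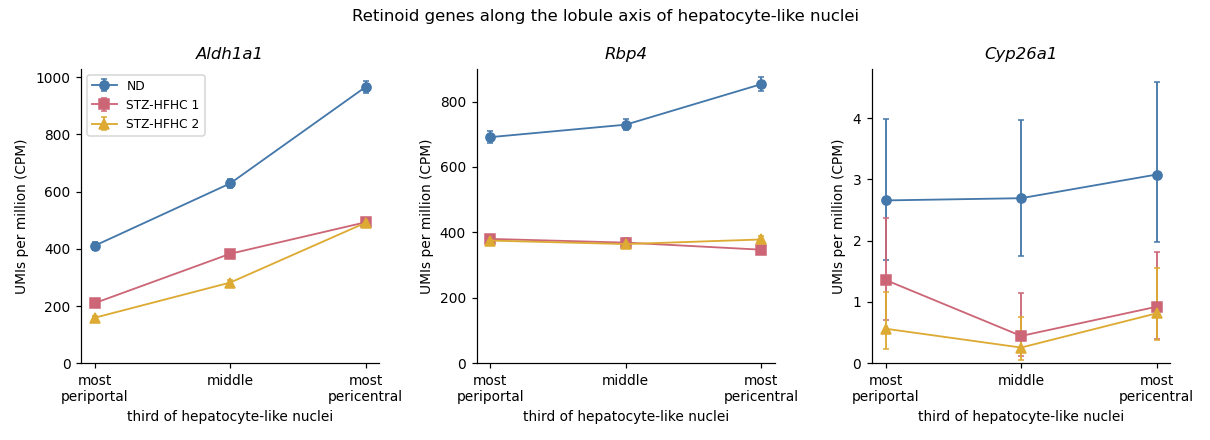
Levels of Aldh1a1, Rbp4 and Cyp26a1 (CPM) in 3 ranges of hepatocyte-like nuclei from periportal to pericentral, 1 line per library with 95% Poisson intervals. Aldh1a1 climbs in all 3 libraries (411 to 966 CPM in ND) and Rbp4 has no direction common to them.

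Cyp26b1, the retinoic acid hydroxylase related to Cyp26a1, had its highest level among the larger named classes in endothelial-like nuclei, which held 58.1%, 29.9% and 32.1% of its UMIs in ND, STZ-HFHC 1 and STZ-HFHC 2. Cyp26b1 (ENSMUSG00000063415, chr6:84571414-84593908, minus strand) was at 7.54 CPM in ND (54 UMIs), 35.4 in STZ-HFHC 1 (92 UMIs) and 24.8 in STZ-HFHC 2 (89 UMIs) in endothelial-like nuclei. These were 11, 39.0 and 26.5 times the level that hepatocyte RNA would give. Stellate-like nuclei were at 2.30, 3.08 and 4.81 CPM, and no named class other than endothelial-like exceeded 13.8 CPM, a value from 2 UMIs. The level in unnamed cluster 6, which holds endothelial and macrophage markers together and in which 21.7% and 18.8% of STZ-HFHC nuclei were among the highest doublet scores, was 24.7 and 18.5 CPM in STZ-HFHC 1 and 2 (105 and 94 UMIs, 34.1% and 33.9% of the gene's UMIs). Macrophage-like nuclei had 0, 13 and 10 UMIs.

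In endothelial-like nuclei Cyp26b1 was higher in STZ-HFHC than in ND by 1.83 ± 0.40 on the log2 scale (adjusted p = 0.0316, edgeR), where 968 of 13274 genes (7.29%) were called. The 2 STZ-HFHC intervals, 28.6 to 43.4 and 19.9 to 30.5 CPM, lay above the ND interval of 5.67 to 9.84. Per 1000 endothelial-marker UMIs it was at 3.31 in ND and 6.63 and 6.93 in the STZ-HFHC mice, with ratios to ND of 2.00 (1.41 to 2.85) and 2.09 (1.48 to 2.99). The direction held on both scales, with a smaller difference per marker UMI, and scaled to the markers the edgeR difference was 1.03 (adjusted p = 0.468). With DESeq2 the difference in CPM was 1.86 (adjusted p = 0.0567). The hepatocyte markers stood at 84.3%, 63.3% and 76.6% of the hepatocyte-like level in this class and the endothelial markers at 2277, 5344 and 3575 CPM. With thinning to 1000 UMIs, 0.84%, 4.56% and 3.14% of endothelial-like nuclei had a UMI of Cyp26b1, against 0.12%, 0.10% and 0.19% of hepatocyte-like nuclei, and without thinning 4.18%, 7.75% and 7.57%. Most ND nuclei of the class were in cluster 7 and most STZ-HFHC nuclei in cluster 5.

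**Figure D5:**
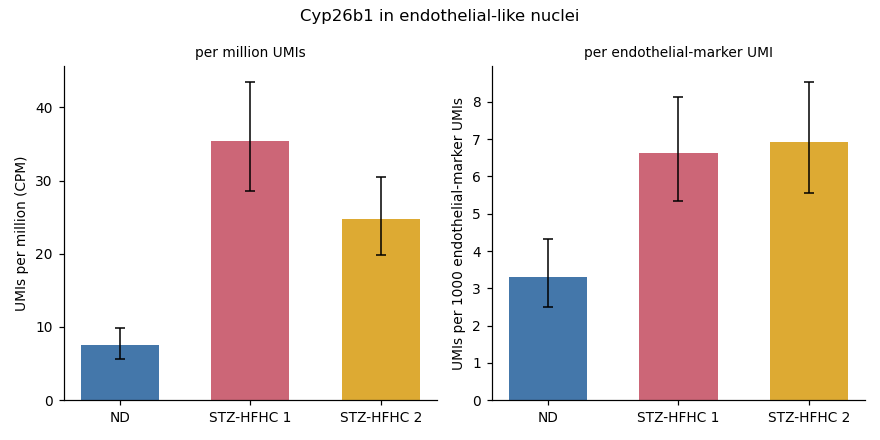
Cyp26b1 in endothelial-like nuclei of each library, in CPM and per 1000 endothelial-marker UMIs. Bars start at 0, error bars are 95% intervals, and ND lies lowest on both scales (7.54 CPM and 3.31 per 1000 marker UMIs).

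Aldh1a2, which makes retinoic acid in mesothelium and other tissues of mesodermal origin, was sparse. Aldh1a2 (ENSMUSG00000013584, chr9:71215789-71296243, plus strand) had 11, 27 and 31 UMIs over all nuclei kept. In mesothelial-like nuclei it had 3 and 6 UMIs in the STZ-HFHC mice (13.7 and 41.5 CPM) and 0 UMIs in ND, which allows up to 29.0 CPM. Monocyte-like nuclei had 0, 7 and 3 UMIs, and hepatocyte-like nuclei 7, 9 and 12. Aldh1a2 over all nuclei kept was higher per UMI in both STZ-HFHC libraries than in ND. This difference did not pass (log2 difference 0.96 ± 0.64, adjusted p = 0.401, edgeR). In hepatocyte-like, stellate-like and endothelial-like nuclei the gene did not pass the filter on low counts, so the main test left it out. With no filter it was tested there and did not pass (adjusted p = 0.928, 0.610 and 0.906, edgeR).

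Over all nuclei kept, 0 of the 7 members passed the edgeR threshold, as did 14 of 18726 genes (0.0748%). Rbp4 was at 680 CPM in ND and 330 and 342 in the STZ-HFHC mice (log2 difference -1.23, adjusted p = 0.0727, edgeR). Lrat was at 4.80, 6.47 and 6.38 CPM, Bco1 at 7.07, 7.98 and 9.78, Cyp26b1 at 2.18, 6.94 and 4.98 and Cyp26a1 at 2.18, 0.970 and 0.557. At unadjusted p under 0.05 there were 4 members, beside 23.9% of all genes, and DESeq2 called 2 of the 6 to which it gave an adjusted p, beside 9.89% of all genes. Sums over all nuclei move with the share of each class, which was 13.9%, 7.07% and 12% for stellate-like nuclei. Hepatocyte-like nuclei made up 63.8%, 34.0% and 43.8% of nuclei in ND, STZ-HFHC 1 and STZ-HFHC 2, and unnamed nuclei 1.01%, 23.4% and 19.0%.

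Other genes of the pathway were taken from lists of 49 further genes. In hepatocyte-like nuclei 39 passed the filter, of which 1 was higher and 2 were lower in STZ-HFHC, beside 0.633% and 0.778% of all genes, with a median log2 difference of -0.24 against 0.01 over all genes. Lpl, a lipase that frees fatty acids and can cleave retinyl esters, was at 2.29 CPM in ND and 29.0 and 18.5 in the STZ-HFHC mice (adjusted p = 0.0448, edgeR). Aox3, an aldehyde oxidase, was at 1069, 248 and 236 CPM (log2 difference -2.25, adjusted p = 0.0251, edgeR), and Rdh16f2, a retinol dehydrogenase family member, at 119, 34.8 and 38.6 CPM (-1.81, adjusted p = 0.0307, edgeR). Ttr, transthyretin, the partner of RBP4 in blood, was at 1461, 597 and 476 CPM and did not pass (adjusted p = 0.0546, edgeR). Of the genes with the highest level in their list, Adh1, an alcohol dehydrogenase that oxidizes retinol, was at 420, 331 and 360 CPM, Scarb1, a lipoprotein receptor that takes up carotenoids, at 230, 241 and 210, Rxra, the partner of the retinoic acid receptors, at 115, 204 and 154, Dgat1, which can also esterify retinol, at 35.2, 25.8 and 38.1, and Dhrs3, which turns retinal back to retinol, at 123, 62.6 and 45.5. None of these 5 passed the test.

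In stellate-like nuclei 39 of the 49 passed the filter, of which 4 were higher (among them Aldh1a3, Lpl and Rarb) and 14 lower (Adh4, Adh7, Aldh8a1, Aox3, Dhrs3, Dhrs4, Lipe, Rdh16, Rdh16f2, Rdh7, Rxrb, Scarb1, Stra6l, Ttr), beside 13.8% and 14.2% of all genes. The median was -0.35 against -0.01 over all genes. The summed hepatocyte markers were 79.7% of the hepatocyte-like level in ND and 46.9% and 55.7% in STZ-HFHC. Their part in the lower levels was not tested. Ttr, at 1191, 341 and 285 CPM, Adh1, at 276, 188 and 218, and Scarb1, at 221, 130 and 124, had the highest levels of their lists. In cluster 3 alone 35 were tested, 0 were higher, and 4 were lower, among them Aox3, Rdh16f2 and Ttr, beside 2.03% and 2.33% of all genes. In endothelial-like nuclei 38 were tested, with Lpl higher and Adh4, Aox3, Dhrs4, Rdh16f2, Rdh7 and Ttr lower, beside 3.22% and 4.07% of all genes.

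The genes whose levels followed each member most closely were sought over 27 combinations of class and library with at least 20 nuclei, among 13503 genes, with Pearson's r of log2(CPM + 1). These points share libraries, depth and hepatocyte RNA, so the values are a description. For Lrat they were Nr1h5 (r = 0.905) and Vipr1 (0.850), and for Bco1 Hs6st3 (0.899), Frem1 (0.867) and Postn (0.845). For Cyp26b1 they were Ppp1r2 (0.854), Pgm2 (0.837) and Flt4 (0.829), the last a receptor of lymphatic and sinusoidal endothelium. For Rbp4 they were Pxmp4 (0.975), Scp2 (0.969) and Ahsg (0.967), the last a plasma protein and marker of hepatocytes. For Aldh1a1 they were Cald1 (0.813), Agtr1a (0.807) and Gpc4 (0.797). Cyp26a1 and Aldh1a2, with 150 and 60 UMIs over these points, had Gm12195, Hspb6 and Gm28905 (up to 0.705) and Fbxo33, Ppp2cb and Dcaf13 (up to 0.798) as their nearest genes, which at such counts is no finding.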

How the data were processed

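Raw UMI counts of 3 libraries, which the authors deposited without normalization, were made with Cell Ranger 7.0.1 on mm10 per the labels' processing notes. Use of intronic reads, strand and correction for free RNA are not given in the sources used here. Free RNA was not removed. The 7 genes and all lists were chosen with earlier results of these data known.

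Nuclei with 200 to 5000 genes and at most 5% mitochondrial counts and genes in at least 3 nuclei were kept (Python 3.11.15, Scanpy 1.11.5). Counts were scaled to 10000, and 2000 variable genes without the retinoid genes, 30 components, 15 neighbours and Leiden resolution 1 were used, without batch correction. Clusters were named for the marker list of which most was raised 2-fold over other clusters, where this covered 33.3% of a list and 3 or more genes. Clusters below that were named hepatocyte-like where 50% of a zone list was raised (clusters 1, 12 and 16) or, in a second pass, where 3 or more hepatocyte markers were 1.2 times their level in the other named or mixed clusters of the same library (clusters 0, 2, 8 and 22). Clusters 8 and 22 had cholangiocyte as their best list before that, with 2 and 1 markers. These rules, and those leaving mixed, shallow or mitochondrial clusters unnamed, were set after the clusters were seen. Doublets were kept, because the automatic Scrublet threshold marked 0, 1 and 0 nuclei, and the highest 8% of scores were left out as an alternative. With all barcodes, clusters took the class of most of their kept nuclei.

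UMIs were summed per class and library. STZ-HFHC was compared with ND with edgeR 4.0.16 in R 4.3.3 (quasi-likelihood, TMM, filterByExpr, Benjamini-Hochberg adjusted p under 0.05). The same test was run on data simulated from the means and spread of each class. False calls there were 4 of 84 for hepatocyte-like, 11 of 123 for stellate-like and 5 of 91 for endothelial-like nuclei. DESeq2 1.42.0, library totals, no filter on low counts, a size rule, other clusterings, marker scaling and left-out libraries were alternatives. Ratios of UMIs took 0.5 added counts. A count of 0 allows up to 3 counts. Named genes were the 7 members, other list genes called in hepatocyte-like or stellate-like nuclei, the highest gene of each list in these classes, and 3 genes most like each member. A few genes that this rule names are not reported here. Of the gene identifiers, 32158 of 32285 were found in GENCODE M21 (GRCm38).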

Additional observations from a re-analysis of the deposited data

Results flagged for a closer look

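Aldh1a1 was flagged because its change ran in opposite directions between cell classes. Its mean log2 ratio of STZ-HFHC to ND was 0.63 in stellate-like nuclei, with both STZ-HFHC libraries above ND, against -0.99 in hepatocyte-like nuclei and -0.80 in endothelial-like nuclei, with both below ND. Under the main settings none of these changes passed the edgeR threshold (adjusted p = 0.0537 in stellate-like, 0.0799 in hepatocyte-like and 0.0593 in endothelial-like nuclei). Cluster 3 alone gave log2 ratios to ND of opposite sign, 0.27 for STZ-HFHC 1 and -0.016 for STZ-HFHC 2. Endothelial-like levels were 0.709 (ND), 1.03 (STZ-HFHC 1) and 0.925 (STZ-HFHC 2) times the level that hepatocyte RNA would give. The difference between the classes was not tested. The summed hepatocyte markers in stellate-like nuclei were 79.7% of the hepatocyte-like level in ND and 46.9% and 55.7% in STZ-HFHC, and their part in the difference was not tested. Scaled to the stellate markers, the log2 difference of Aldh1a1 in stellate-like nuclei was -1.10, where the median of all genes was -1.65.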

How the results depend on the processing

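No paired analysis was possible, because the 1 ND mouse and the 2 STZ-HFHC mice form no pairs. Leaving out either STZ-HFHC library gave values with no test, from 1.68 to 1.81 for Lrat and 1.51 to 1.57 for Bco1 in stellate-like nuclei, 1.71 to 2.23 for Cyp26b1 in endothelial-like nuclei, and -1.04 to -1.02 for Rbp4, -1.11 to -0.86 for Aldh1a1 and -2.35 to -1.61 for Cyp26a1 in hepatocyte-like nuclei (log2 ratios), all in the direction reported. Endothelial-like nuclei under Leiden resolution 0.5 and under thinning were not run, because under 20 STZ-HFHC nuclei were in the class. Levels of Lrat and Bco1 in stellate-like and of Cyp26b1 in endothelial-like nuclei were above hepatocyte-like nuclei in 9 of 9 pairs of gene and library, and in 7 of 7 under Leiden resolution 0.5 and under thinning. Marker scaling and the subsets of clusters were chosen after seeing the data.

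The number of genes called in hepatocyte-like nuclei, 234, was 2929 with no filter on low counts, 1094 with DESeq2, 1495 scaled to the markers, 2041 by the size rule (at least 50 UMIs and a log2 ratio of at least 1 in both STZ-HFHC libraries), 602 at Leiden resolution 0.5, 439 with all barcodes and 481 without the clusters named by zone lists. In stellate-like nuclei, 3899 became 0 with no filter (edgeR; 4478 at unadjusted p under 0.05), 1495 with DESeq2, 10580 scaled to the markers, 2330 by the size rule, 2499 after thinning and 532 in cluster 3. In endothelial-like nuclei, 968 became 2356 with no filter, 640 with DESeq2, 1574 by the size rule, 1866 at Leiden resolution 2, 2444 without the highest doublet scores and 1614 with all barcodes. Over all nuclei, 14 became 896 with library totals, 2969 with no filter, 1852 with DESeq2 and 634 with all barcodes. With library totals the calls split into 647 higher and 425 lower in endothelial-like nuclei (428 and 540 with TMM) and 607 and 289 over all nuclei (6 and 8).

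Rbp4 in hepatocyte-like nuclei passed with no filter (-1.14, adjusted p = 3.54e-06), DESeq2 (-1.14), the size rule (-1.03), Leiden resolution 0.5 (-1.14, adjusted p = 0.0366) and without the clusters named by zone lists (-1.23, adjusted p = 0.0392). Aldh1a1 passed with no filter (-1.10), DESeq2 (-1.09) and Leiden resolution 0.5 (-1.10, adjusted p = 0.0479), and Cyp26a1 with no filter (-2.07, adjusted p = 0.0022) and by the size rule (-1.98). Lrat in stellate-like nuclei no longer passed with no filter (1.61), scaled to the markers (0.022) or, reversed, in cluster 3 (-0.80), nor did Bco1 (1.41, and reversed at -0.17 and -0.62). Cyp26b1 in endothelial-like nuclei no longer passed with DESeq2 (1.86) or scaled to the markers (1.03). Marker scaling, which moved the median of all genes by 0.24 in hepatocyte-like, -1.65 in stellate-like and -0.77 in endothelial-like nuclei, also turned Lrat in hepatocyte-like (0.094), Aldh1a1 (-1.10) and Cyp26b1 (-0.85) in stellate-like, and Lrat (-0.70) and Bco1 (-0.21) in endothelial-like nuclei. Lrat in hepatocyte-like nuclei was 0.053 without cluster 13. The causes were not tested. With 2 ranges in place of 3, the Aldh1a1 zone ratio was 2.05. Under the alternatives other than marker scaling and subsets of clusters, 135 of 176 values stayed in place, 30 newly passed or grew, 10 no longer passed or shrank and 1 moved, and under the others 20 of 38 stayed, 4 grew, 5 shrank and 9 reversed. Aldh1a1 in endothelial-like nuclei, at -0.95 (adjusted p = 0.0593), passed with no filter, Leiden resolution 2, without the highest doublet scores and with all barcodes (-1.13 to -0.97). Depth limited Aldh1a2 and Cyp26a1 most, with 11 to 31 and 31 to 93 UMIs per library.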
